A study of Mus musculus with 6 samples.

Results

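The inflammasome and interleukin-1 (IL-1) axis was examined through 10 genes in the abdominal aorta of mice at day 7 after aneurysm induction. The genes were taken by name from the deposited count table: the sensor Nlrp3, the adaptor Pycard, the caspases Casp1 and Casp4, the pore former Gsdmd, the cytokines Il1a, Il1b and Il18, the antagonist Il1rn and the receptor Il1r1. All 10 were found among the 54532 genes of the table. The libraries came from Olfr2 KO mice, which lack the olfactory receptor gene Olfr2, and from WT mice, with 3 libraries for each genotype, and every mouse had an aneurysm induced. The knockout allele, strain, age and method of induction are not stated in the sources used here, and there was no uninduced aorta among the samples. Each library has its own label in the count table, but the labels do not say that libraries of a group came from separate animals. Every p here is therefore measured against the spread between libraries, and how much of it lies between animals is not known. That spread was wider than counting error alone would give. The chi-square between pairs of libraries was 25.6 to 81.01 per degree of freedom, so no library was a repeat count of another. The comparison of KO with WT asks how transcripts of this axis stand in aneurysm tissue where Olfr2 is missing.

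An inflammasome is a protein complex that forms in the cytosol, mostly of myeloid cells, after a sensor such as NLRP3 detects microbial or damage signals. The sensor recruits the adaptor ASC, encoded by Pycard, which gathers caspase-1, and caspase-1 cuts the precursors of IL-1β and IL-18 and the pore-forming protein gasdermin D. Mouse caspase-11, encoded by Casp4, senses bacterial lipopolysaccharide in the cytosol and also cuts gasdermin D. IL-1α and IL-1β signal through the receptor encoded by Il1r1, and the product of Il1rn occupies that receptor without signalling. In aneurysm, infiltrating macrophages and neutrophils are known sources of IL-1β, and IL-1 acts on smooth muscle and endothelium. Transcript counts do not measure cleavage or secretion of these proteins.

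The libraries held 17248918 to 21872027 gene counts. Olfr2 itself was at 0 counts in both genotypes, so the genotype labels could not be checked on the targeted gene. A level of up to 3 counts, or 0.14 to 0.182 CPM (the count scaled to the size of its library, the level used below) across the libraries, is still allowed by a count of 0, counting error alone considered. Markers of smooth muscle, which define the vessel wall, summed to 921 to 2488 CPM, so the labelled tissue was represented in every library. KO replicate 3 held 661 CPM of 4 skeletal muscle genes, against 1.5 to 10.3 CPM in the other libraries. WT replicate 2 held 523 counts of the macrophage gene Lyz2, against 71223 to 126527 in the other libraries, and 7381 counts of its close relative Lyz1, against 181 to 843. Values without these libraries are given beside the members whose difference they move by over 1.5 times.

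Several members lie close together in the genome (GRCm38). Il1a (chromosome 2, 129299610 to 129309972, minus strand) and Il1b (chromosome 2, 129364570 to 129371139, minus strand) are 54.6 kb apart, and Il1rn (chromosome 2, 24336853 to 24351494, plus strand) lies on the same chromosome near the Il1f genes. Casp1 (chromosome 9, 5298517 to 5307265, plus strand) and Casp4 (chromosome 9, 5308828 to 5336783, plus strand) are separated by 1.56 kb, and Il18 (chromosome 9, 50554827 to 50581840, plus strand) is on the same chromosome. Il1r1 (chromosome 1, 40225080 to 40317257, plus strand) stands in a row with the related receptor genes Il1r2, Il1rl2, Il1rl1, Il18r1 and Il18rap. Nlrp3 is on chromosome 11 (59541568 to 59566956, plus strand), Pycard on chromosome 7 (127989708 to 127993867, minus strand) and Gsdmd on chromosome 15 (75862327 to 75867408, plus strand). All 10 are protein-coding. Exons of another gene cover 12.8% of the exon bases of Pycard, 11.2% of those of Il1a and 1.31% of those of Il1b, and 0% for the other members, so counts of Pycard and Il1a are the least certain where strand is not known.

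RefSeq promoters (250 bases before to 50 after a start site, GRCm38.p6) were held for 9 of the 10 members, 14 windows in all, and 3 are shown. Il18 is shown because it had the largest difference between genotypes, Il1b because it was the most abundant member per length, and Casp4 because it held the most motif matches. Capitals mark matches, on either strand, to the nuclear factor κB core, GGG and CC separated by any 5 bases. The windows are chr9:50554450-50554749 (plus strand) for Il18, chr2:129371090-129371389 (minus strand) for Il1b and chr9:5308610-5308909 (plus strand) for Casp4.
Il18: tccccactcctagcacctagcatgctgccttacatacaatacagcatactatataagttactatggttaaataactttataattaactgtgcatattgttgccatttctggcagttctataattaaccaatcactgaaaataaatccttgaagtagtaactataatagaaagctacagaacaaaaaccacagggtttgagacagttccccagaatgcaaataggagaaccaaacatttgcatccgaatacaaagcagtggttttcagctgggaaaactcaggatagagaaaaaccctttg
Il1b: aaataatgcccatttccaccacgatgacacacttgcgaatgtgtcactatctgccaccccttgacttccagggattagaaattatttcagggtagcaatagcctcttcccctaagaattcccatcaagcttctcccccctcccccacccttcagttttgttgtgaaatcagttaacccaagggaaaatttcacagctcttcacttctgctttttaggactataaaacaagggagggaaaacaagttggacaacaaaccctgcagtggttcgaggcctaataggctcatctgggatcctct
Casp4: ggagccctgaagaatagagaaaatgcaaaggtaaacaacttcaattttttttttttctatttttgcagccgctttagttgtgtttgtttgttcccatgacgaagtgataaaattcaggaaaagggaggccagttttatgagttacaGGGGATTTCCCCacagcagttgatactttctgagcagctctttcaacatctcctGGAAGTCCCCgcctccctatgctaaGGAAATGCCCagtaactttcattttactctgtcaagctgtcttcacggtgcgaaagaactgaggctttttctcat
The Casp4 window held 5 matches, of which 3 overlap each other in the first run of capitals, and the windows of Il18 and Il1b held none. At least 1 window with this core was found for Casp1, Casp4, Il1rn, Il1r1 and Nlrp3, or 5 of 9 members. Counted by window, the core was in 9 of 14, some of which overlap each other. It was present in 50.8% of all 32851 promoters of the same length. The core of the interferon-stimulated response element, GAAA and GAAA separated by any 2 bases, was in 3.44% of all promoters and the core of the gamma-activated sequence, TTC and GAA separated by any 3 bases, in 8.3%, and neither was in any member window. A match is a run of letters and not a bound site, and the absence of a match says only that these letters are not in this window.

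Across the axis, 0 of 10 members passed in KO against WT at an adjusted p under 0.05 (edgeR's quasi-likelihood test, Benjamini-Hochberg over 16237 tested genes). Over all tested genes 2 passed, which is 0.0123%. At an unadjusted p under 0.05 there were 2 members, Il18 and Gsdmd, both lower in KO, where 6.08% of all tested genes were called lower and 5.23% higher. The same 2 were the members whose KO and WT libraries did not overlap, and 9.01% of all tested genes had every KO library below every WT library, with 7.83% the other way. The log2 fold change was below 0 for 8 of 10 members, with Il1a and Il1b above 0, and below 0 for 48.8% of all tested genes. The median over the members was -0.19, and over all tested genes 0.01. DESeq2 called 1 member, Il18 (adjusted p = 0.0324), and 2.8% of all tested genes, 1.76% as lower. Without KO replicate 3 the members at an unadjusted p under 0.05 numbered 4, with Casp1 and Il1rn added, and all 10 log2 fold changes were below 0. In that fit 1621 of 16656 tested genes reached this threshold in either direction, and the median over all was 0.007. Without KO replicate 1 the members numbered 3, with Il1a added, higher in KO at 0.63, and 8 were below 0. There 1381 of 16670 tested genes reached the threshold. Without WT replicate 3 the members also numbered 3, with Casp1 added, where 1784 of 16656 tested genes reached it. Because the tissue was sequenced whole, fewer cells of a type and less RNA per cell cannot be told apart in any of these values.

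**Figure D1:**
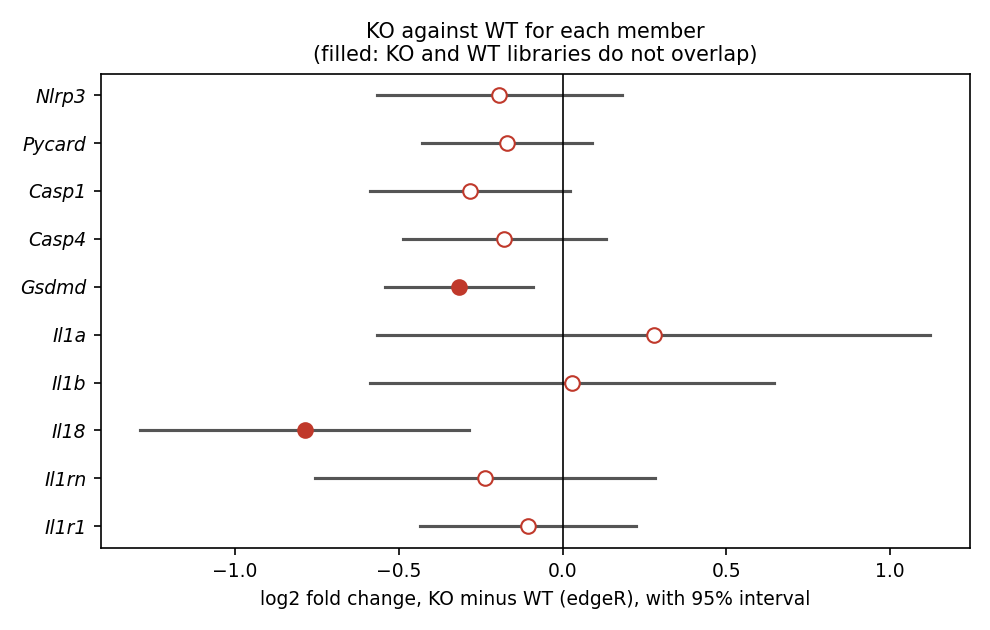
Log2 fold change of each member, KO minus WT (horizontal axis, edgeR), with its 95% interval as a line. The intervals of Il18 (-1.29 to -0.29) and Gsdmd (-0.54 to -0.09) lie below 0, and those of the other 8 members cross 0.

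The sensor and the adaptor did not pass. Nlrp3 stood at 37.6, 54.5 and 59.4 CPM in the KO libraries, replicates 1 to 3 in that order here and below, and at 61.7, 54.4 and 57.3 CPM in the WT libraries. KO replicate 1 was the low one, and the other KO libraries lay within the WT range. Nlrp3 differed by -0.19 on the log2 scale (SE 0.16, adjusted p = 0.738, edgeR), -0.02 without KO replicate 1 and -0.33 without KO replicate 3. Pycard stood at 38, 37.6 and 41.5 CPM in KO and at 39.7, 47.9 and 44.1 CPM in WT. The KO and WT values of Pycard overlapped through KO replicate 3 and WT replicate 1, with a log2 difference of -0.17 (SE 0.11, adjusted p = 0.65, edgeR), and -0.10 without WT replicate 2.

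The caspase genes had lower means in KO and their libraries overlapped. Casp1, which encodes the enzyme that matures IL-1β and IL-18, stood at 50.7, 51.3 and 60.2 CPM in KO and at 63.9, 76.3 and 57.04 CPM in WT. WT replicate 2 was the highest, and KO replicate 3 exceeded WT replicate 3. For Casp1 the log2 difference was -0.28 (SE 0.13, adjusted p = 0.487, edgeR), with a 95% interval of -0.59 to 0.02. It was -0.16 without WT replicate 2, and -0.37 without KO replicate 3 or without WT replicate 3. Casp4 stood at 70.1, 51.8 and 67.5 CPM in KO and at 78.3, 67.5 and 68.3 CPM in WT. Here KO replicate 2 was low and KO replicate 1 exceeded WT replicates 2 and 3. Casp4 differed by -0.18 on the log2 scale (SE 0.14, adjusted p = 0.707, edgeR), -0.05 without KO replicate 2 and -0.11 without WT replicate 1.

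Gsdmd, whose product forms the pore through which IL-1β leaves the cell, was among the tightest of the members within each genotype. It stood at 121.5, 125.1 and 119.95 CPM in KO and at 149.5, 146.7 and 160.4 CPM in WT. All KO libraries lay below all WT libraries, and the coefficient of variation was 2.15% in KO and 4.73% in WT. The log2 fold change was -0.32 (SE 0.10), a KO level of 0.803 times the WT level with a 95% interval of 0.687 to 0.939. With an unadjusted p of 0.0113 it did not pass after adjustment (adjusted p = 0.268, edgeR; 0.125 to 0.585 over the alternatives). Leaving out any 1 library gave -0.34 to -0.28.

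Il18, the cytokine that drives interferon-γ production by T and natural killer cells, had the largest difference of the members. It stood at 11.8, 13.5 and 13.3 CPM in KO and at 22.6, 28.98 and 15.2 CPM in WT. The KO libraries lay close together below all WT libraries, WT replicate 2 was the highest, and WT replicate 3 stood nearest to KO. KO replicate 2 and WT replicate 3 each held 264 counts of Il18, in libraries of 18791519 and 17551736 counts. The log2 fold change was -0.79 (SE 0.22), a KO level of 0.579 times the WT level with a 95% interval of 0.409 to 0.82, and it did not pass (adjusted p = 0.22, edgeR; 0.0168 to 0.572 over the alternatives). It passed without WT replicate 3 (-1.0001, adjusted p = 0.0422, edgeR), by DESeq2 (-0.79) and with no filter on low counts (-0.79, adjusted p = 0.0168, edgeR). Without WT replicate 2 the log2 fold change was -0.55, and without KO replicate 3 and WT replicate 2 together, a choice made after seeing the data, it was -0.57. Markers of classical monocytes summed to 981, 1234 and 1024 CPM in KO and to 2057, 2557 and 1381 CPM in WT. Of these genes 5 of 7 were lower at an unadjusted p under 0.05, beside 6.08% of all tested genes. The monocyte sums did not overlap and their order among the WT libraries was that of Il18. Natural killer cell markers had the same order, at 188, 241 and 154 CPM in WT, and also did not overlap (73.4 to 115 CPM in KO). An order of 3 libraries is easily shared. The part of either cell type in the level of Il18 was not tested.

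The IL-1 cytokines themselves showed a wide spread among the KO libraries. Il1b stood at 153, 239 and 362 CPM in KO and at 288, 241 and 211 CPM in WT. KO replicate 1 was the lowest of all 6 libraries and KO replicate 3 the highest, with the WT libraries between them. The coefficient of variation of Il1b was 41.8% in KO and 15.8% in WT, and the highest KO library was 2.36 times the lowest. The log2 fold change of 0.03 had a 95% interval of -0.59 to 0.64 (adjusted p = 0.989, edgeR), so a KO level from 0.665 to 1.56 times that of WT lies inside it. The sign of Il1b turned without KO replicate 3, at -0.33 (adjusted p = 0.705, edgeR; 0.705 to 0.999 over the alternatives), and without WT replicate 3, at -0.08, and it was 0.01 without WT replicate 2.

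Il1a, the form of IL-1 that is active without cleavage by caspase-1, followed the same order in KO. It stood at 3.56, 8.19 and 12.4 CPM in KO and at 6.63, 6.85 and 6.5 CPM in WT. The 3 WT libraries were nearly level, with a coefficient of variation of 2.64%, and the KO libraries lay on both sides of them, with 55%. Il1a differed by 0.28 on the log2 scale (SE 0.37, adjusted p = 0.865, edgeR), -0.18 without KO replicate 3 and 0.63 without KO replicate 1.

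Il1rn, the antagonist, stood at 152, 166 and 292.2 CPM in KO and at 256, 231 and 231 CPM in WT. KO replicates 1 and 2 lay below all WT libraries and KO replicate 3 above them. Il1rn differed by -0.24 on the log2 scale (SE 0.23, adjusted p = 0.777, edgeR), -0.59 without KO replicate 3, -0.07 without KO replicate 1 and -0.10 without KO replicate 2 (adjusted p 0.168 to 0.971 over the alternatives). Il1r1, the signalling receptor, stood at 195, 208 and 243 CPM in KO and at 258, 192.5 and 245 CPM in WT. Its genotypes overlapped, WT replicate 2 being the lowest, and Il1r1 differed by -0.11 on the log2 scale (SE 0.15, adjusted p = 0.87, edgeR). Leaving out 1 library gave -0.02 (WT replicate 1) to -0.22 (WT replicate 2) for Il1r1, -0.04 without KO replicate 1, -0.07 without WT replicate 3 and -0.20 without KO replicate 3.

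**Figure D2:**
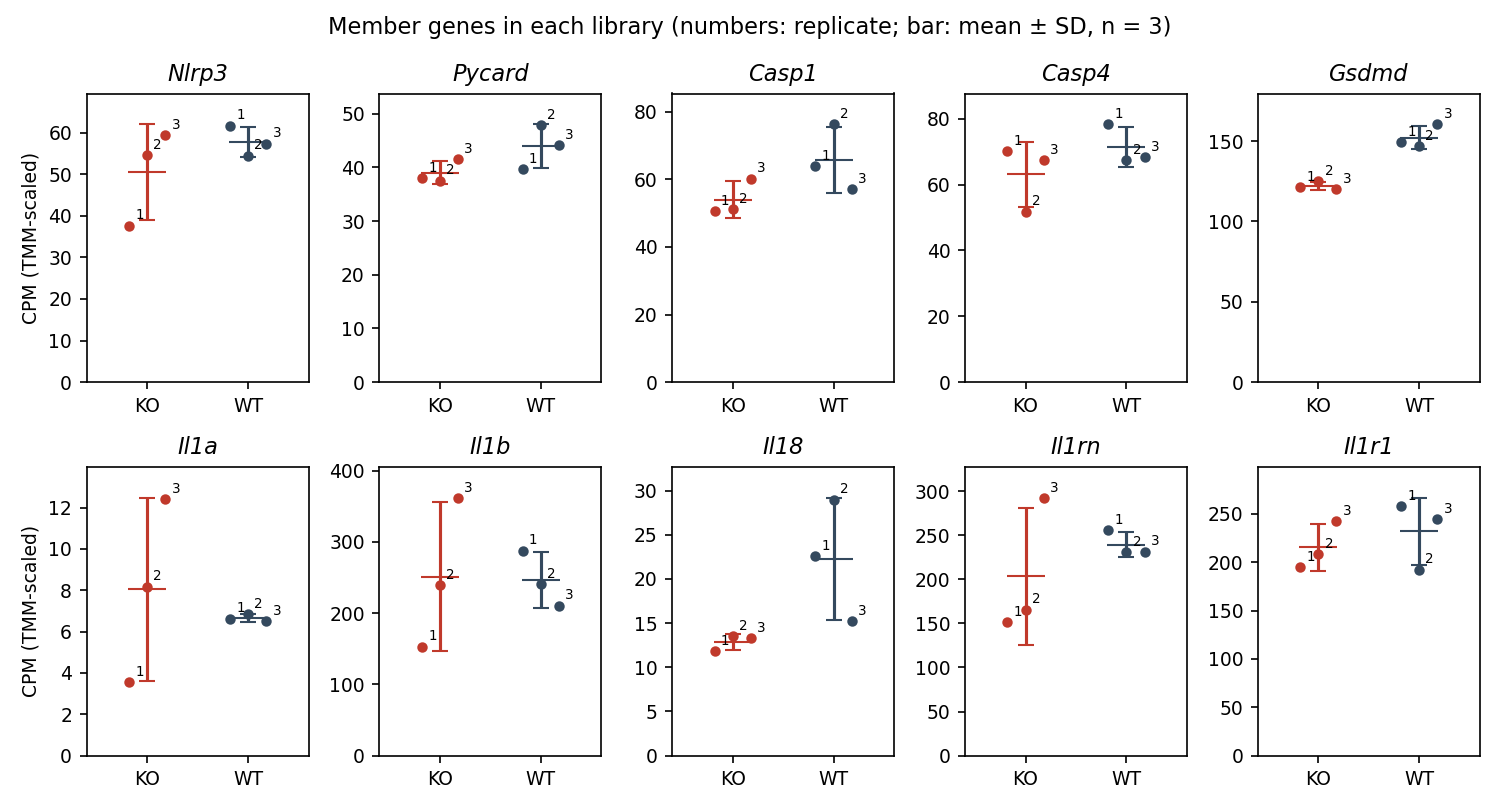
CPM of each member in each library (vertical axis, from 0), with KO in red and WT in dark blue, replicate numbers beside the points, and the mean ± SD (n = 3) as bars. Gsdmd and Il18 have all KO points below all WT points, while the KO points of Il1a, Il1b and Il1rn spread from below the WT points to above them.

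The members differed in which library was high. KO replicate 1 held the lowest value of 6 of the 10 members, and none was highest there. KO replicate 3 held the highest value of Il1a, Il1b and Il1rn, and the lowest of Gsdmd. WT replicate 2 held the highest value of Pycard, Casp1 and Il18, and the lowest of Il1r1. Likeness between genes was measured on log2 CPM over the 6 libraries, with each gene centred on its own mean. The measure was the root mean square difference, where a smaller value is closer. It is not scaled to how much a gene varies, so genes that vary little come out close whatever the order of their libraries. On this measure the closest members were Pycard and Casp1 (0.121), where Pycard itself varied little. Il1b stood at similar differences from Il1rn (0.215), Nlrp3 (0.224) and Il1a (0.23), and farther from Il18 (0.516). The farthest pair was Il1a and Il18 (0.673).

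**Figure D3:**
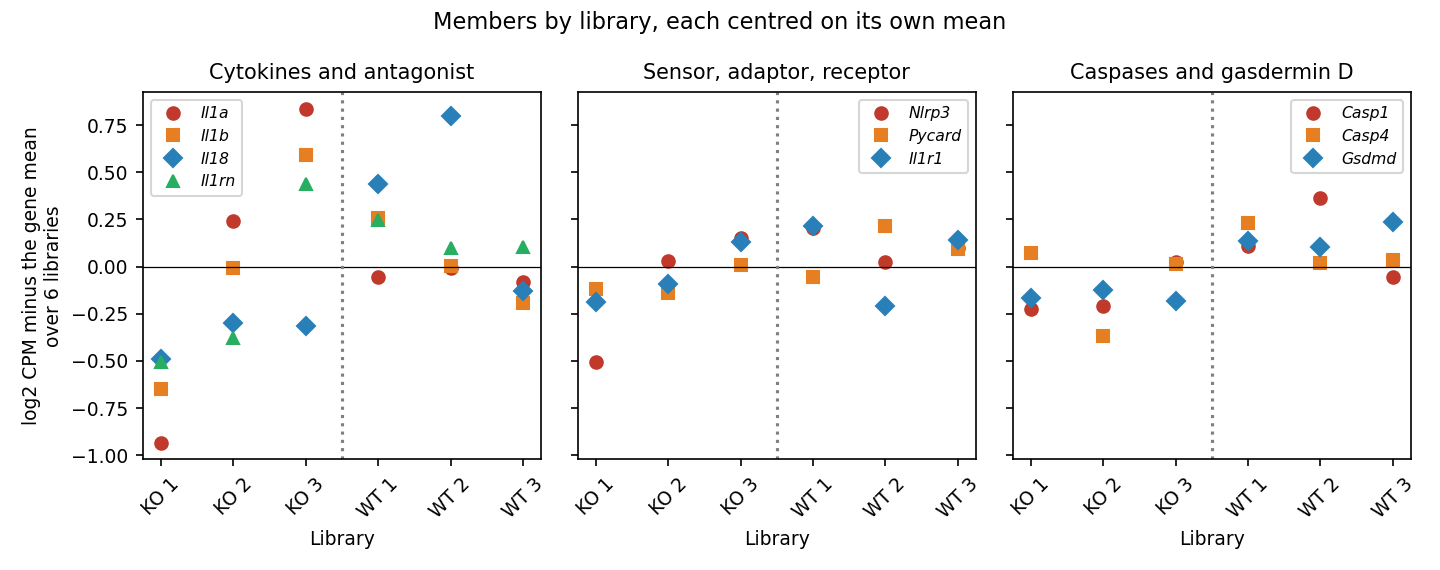
Log2 CPM of each member minus its own mean over the 6 libraries (vertical axis), by library (horizontal axis), with the dotted line between KO and WT. In the left panel Il1a, Il1b and Il1rn are highest in KO replicate 3, while Il18 is below its mean in all KO libraries and highest in WT replicate 2.

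Levels of different genes were compared per length, as RPKM (CPM per kilobase of exon), averaged over all 6 libraries. The length was that of all annotated exons merged, 3800 bases for Pycard, 5535 for Il1rn and 1031 for Il18. Exons that few transcripts use lower the value of a gene, so the order depends on this choice of length. Il1b was the highest at 131 RPKM (80.3 to 190 over the libraries), and its range did not overlap that of the next gene, Gsdmd, at 57.7 RPKM. Gsdmd exceeded Casp1 in 6 of 6 libraries. Casp1 (40.01 RPKM), Il1rn (39.98 RPKM) and Il1r1 (35.2 RPKM) followed with overlapping ranges, and Casp1 exceeded Il1rn in 3 of 6 libraries. Casp4 (18.1 RPKM), Il18 (17.05 RPKM), Nlrp3 (13.4 RPKM) and Pycard (10.9 RPKM) made up the lower part of the order, and adjacent genes there also overlapped. By group means alone, the place of Il18 differed between genotypes. Its mean was 21.6 ± 6.69 RPKM in WT (SD, n = 3), above Casp4 at 19.2 ± 1.61. In KO it was 12.5 RPKM, below Casp4 at 17.01 and level with Nlrp3 at 12.5. Casp4 exceeded Il18 in 4 of 6 libraries, WT replicate 3 among them, and WT replicate 2 held the highest Il18 value. The difference in place was not tested. Il1a was the lowest at 3.73 RPKM (1.8 to 6.28), below the range of Pycard.

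The balance of ligand and inhibitor was compared within each library, where the scaling of libraries cancels. The log2 ratio of Il1rn to Il1b, antagonist to agonist, was -0.01, -0.53 and -0.31 in the KO libraries and -0.17, -0.06 and 0.14 in the WT libraries. The KO mean was lower by 0.25, with KO replicate 1 inside the WT range (exact permutation p = 0.3, two-sided, adjusted 0.5 over 4 ratios). For 3 libraries against 3 the smallest p this test can give is 0.1. The log2 ratio of Il18bp, which encodes the secreted IL-18 binding protein, to Il18 was 2.19 ± 0.29 in KO and 2.05 ± 0.20 in WT (SD, n = 3 each; exact permutation p = 0.5, adjusted 0.5). Il18bp stood at 60.4 ± 15.02 CPM in KO libraries against 90.8 ± 19.6 CPM in WT ones (SD, n = 3 each), so the inhibitor and its ligand both had lower means in KO. The log2 ratio of the decoy receptor Il1r2 to Il1r1 was -1.65 ± 0.40 in KO and -1.48 ± 0.14 in WT, and that of Il1a to Il1b was -5.03 ± 0.31 and -5.18 ± 0.22 (SD, n = 3 each; exact permutation p = 0.5 for either, adjusted 0.5).

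Other genes of the pathway were taken from 6 lists holding 87 genes, of which 77 were tested. By edgeR's quasi-likelihood test 0 passed (lowest adjusted p = 0.124), by DESeq2 5 passed, and at an unadjusted p under 0.05 there were 15 lower and 1 higher in KO, beside the background of 6.08% and 5.23%. The median log2 fold change of the 77 was -0.19, and 59 were below 0, beside 48.8% of all tested genes. Without KO replicate 1 the lower ones numbered 9, where 1381 of 16670 tested genes reached that threshold in either direction. Without KO replicate 3 the lower ones numbered 21, where 1621 of 16656 did.

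Interferon-linked regulators of inflammasomes had the lowest median of the 6 lists. All 12 genes of that list were tested and had a log2 fold change below 0, with a median of -0.51. An unadjusted p under 0.05 was reached by 9, all lower, and 8 had all KO libraries below all WT libraries. Over all tested genes these shares were 6.08% and 9.01%, and 48.8% had a log2 fold change below 0. Zbp1, a nucleic acid sensor that engages inflammasomes and necroptosis, stood at 149, 153 and 232 CPM in KO and at 355, 427 and 293 CPM in WT. The genotypes did not overlap, and the log2 difference for Zbp1 was -1.01 (SE 0.21, adjusted p = 0.124, edgeR). The DNA-sensing family genes Ifi209 and Ifi204 differed by -0.92 (SE 0.21) and -0.90 (SE 0.21) on the log2 scale, though reads of such close relatives can be split between them. Among transcription factors, Irf2, which is known to drive Gsdmd transcription, had -0.53 (SE 0.14, adjusted p = 0.205, edgeR), Irf8 had -0.42 (SE 0.15) and Irf1 had -0.29 (SE 0.16). The guanylate-binding protein genes Gbp5 and Gbp2 had -0.49 (SE 0.19) and -0.19 (SE 0.20). The lower level of interferon response genes in KO was known from earlier results of these data, so the direction of this list is not independent evidence. T cell markers summed to 165 to 205 CPM in KO against 272 to 329 CPM in WT, with 8 of 8 lower at an unadjusted p under 0.05. Natural killer cell markers summed to 73.4 to 115 CPM against 154 to 241 CPM, with 6 of 6 lower. The part of these cells in the list was not tested. With 1 library left out, the genes of the list lower at an unadjusted p under 0.05 numbered 7 (without KO replicate 1 or KO replicate 2) to 12 (without KO replicate 3). Over all tested genes, in either direction, those fits had 1381 of 16670, 1641 of 16543 and 1621 of 16656, in that order.

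Sensors other than Nlrp3 and their partners did not pass, with 21 of 24 tested and a median log2 fold change of -0.15. At an unadjusted p under 0.05, 3 were lower and 0 higher, beside 6.08% and 5.23% of all tested genes. Aim2, which senses cytosolic DNA, stood at 31.8 ± 5.63 CPM in KO libraries against 41.2 ± 7.6 CPM in WT ones (SD, n = 3 each) and differed by -0.37 on the log2 scale (SE 0.18, adjusted p = 0.474, edgeR). Nlrc4 (0.04, SE 0.21), Nlrp1b (0.08, SE 0.25), the Nlrp3 partner Nek7 (0.03, SE 0.10), the ATP-gated channel P2rx7 (-0.15, SE 0.12) and Txnip (0.09, SE 0.15) stood near 0. The 3 with the smallest p were the channel gene Panx1 (-0.35), Nlrp1a (-0.58), a close relative of Nlrp1b, and Casp8 (-0.28), and Gsdme had -0.22 (SE 0.17). Gsdmc had 0 counts in all 6 libraries.

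Among the other ligands, Il33, an alarmin of stromal cells, stood at 219 ± 13.5 CPM in KO libraries against 244 ± 60.5 CPM in WT ones (SD, n = 3 each) and differed by -0.16 on the log2 scale (SE 0.18, adjusted p = 0.828, edgeR). Il1f9, which encodes IL-36γ, stood at 9.07, 20.4 and 20.6 CPM in KO and at 13.4, 12.5 and 17.3 CPM in WT. As with Il1b, its KO replicate 1 was the lowest library and KO replicate 3 the highest. Il1f5, Il1f6 and Il1f8, the other IL-36 genes, had 0 counts in all 6 libraries. Il18bp had the smallest p of the list, at -0.59 on the log2 scale (SE 0.20, adjusted p = 0.314, edgeR).

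All 7 tested receptor genes had a log2 fold change below 0, beside 48.8% of all tested genes. These 7 share the same libraries, so their signs are not independent. The median was -0.26, and at an unadjusted p under 0.05 there were 0. The IL-18 receptor genes Il18r1 (-0.35, SE 0.19) and Il18rap (-0.33, SE 0.15), the shared accessory chain Il1rap (-0.09, SE 0.13), the decoy Il1r2 (-0.26, SE 0.17), the IL-33 receptor Il1rl1 (-0.01, SE 0.31) and the inhibitory receptor Sigirr (-0.29, SE 0.14) were among them. Signal adaptors and kinases had 16 of 16 tested and a median of -0.11. Myd88, the adaptor that every signalling IL-1 family receptor uses, stood at 124, 113 and 122 CPM in KO and at 139.7, 189 and 152 CPM in WT. Its genotypes did not overlap and Myd88 differed by -0.42 on the log2 scale (SE 0.13, adjusted p = 0.27, edgeR), while the kinase gene Irak4 had -0.12 (SE 0.12), the NF-κB subunit gene Nfkb1 -0.28 (SE 0.14) and the kinase-binding adaptor gene Tab1 -0.39 (SE 0.21).

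Genes that IL-1 induces stood on both sides of 0. Of 18 tested, 13 were below 0 and 5 above, beside 48.8% of all tested genes below 0. The median log2 fold change was -0.11. At an unadjusted p under 0.05 there was 1 in each direction, beside 6.08% of all tested genes lower and 5.23% higher. Ptgs2, which encodes cyclooxygenase-2, stood at 44.1, 40.2 and 71.4 CPM in KO and at 41.1, 28.2 and 29.01 CPM in WT. KO replicate 3 was the highest, WT replicate 1 exceeded KO replicate 2, and the log2 difference for Ptgs2 was 0.66 (SE 0.23, adjusted p = 0.322, edgeR). The neutrophil-recruiting chemokines Cxcl1 (0.50, SE 0.28) and Cxcl2 (0.29, SE 0.23), the cytokine Il6 (0.40, SE 0.50) and the iron-carrier-binding protein gene Lcn2 (0.46, SE 0.21) were the others above 0. Cxcl5, a further neutrophil-recruiting chemokine, had -0.18 (SE 0.18), and the NF-κB feedback inhibitor gene Nfkbia had -0.12 (SE 0.15). On the lower side, Zc3h12a, an RNase that degrades cytokine transcripts, had -0.31 (SE 0.13, adjusted p = 0.438, edgeR).

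**Figure D4:**
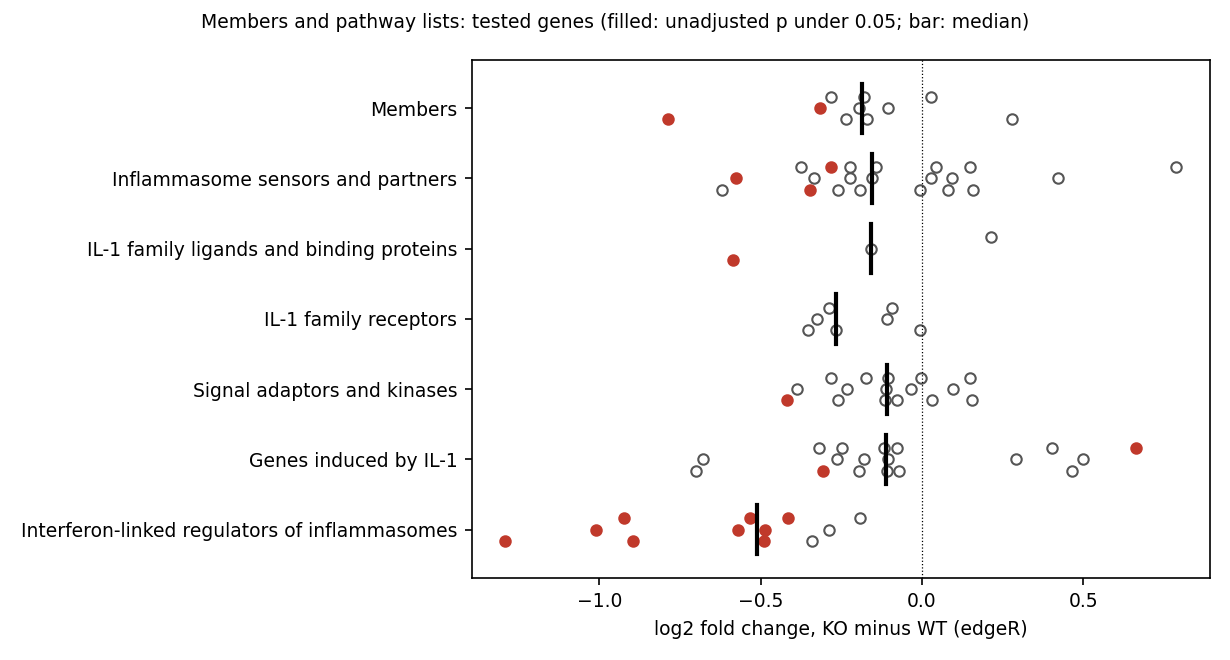
Log2 fold change, KO minus WT (horizontal axis, edgeR), of each tested gene in the members and the 6 pathway lists, with filled points at an unadjusted p under 0.05 and a bar at the median. All 12 interferon-linked regulators lie below 0, while the genes induced by IL-1 lie on both sides.

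Neutrophil markers summed to 619 to 871 CPM in KO and 609 to 710 CPM in WT, overlapping. Of 10 tested, 2 had an unadjusted p under 0.05, both higher in KO. Over all tested genes 6.08% were lower and 5.23% higher at that threshold, the background for each marker list here. The defining marker Ly6g was near 0, at 0.782 ± 0.33 CPM in KO libraries against 0.434 ± 0.246 CPM in WT ones (SD, n = 3 each). Macrophage markers summed to 4189 to 5355 CPM in KO and 4372 to 6921 CPM in WT, with WT replicate 2 the highest library, as it was for Il18 and Casp1. At an unadjusted p under 0.05 the macrophage list had 1 gene lower and 1 higher of 10. Dendritic cell markers summed to 219.6 to 246 CPM in KO against 349 to 538 CPM in WT, with 5 of 7 lower at that threshold. Mast cell markers summed to 33.7 to 42.8 CPM against 47.5 to 67.3 CPM, most of it Kit, which other cells also express. Of 5 tested, Kit alone was lower at that threshold, and Cpa3, Cma1, Mcpt4 and Tpsb2 overlapped between genotypes. Smooth muscle markers summed to 1581 to 2488 CPM in KO and 921 to 1390 CPM in WT with no overlap, and 5 of 6 were higher in KO at that threshold. White adipocyte markers summed to 317 to 544 CPM in KO and 57.1 to 341 CPM in WT, where WT replicate 3 was the highest. The part of these cells in the levels of Gsdmd and the other members was not tested.

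Nearest genes by the same unscaled difference were sought among 11260 protein-coding genes at a mean of at least 5 CPM. They are a description over 6 libraries that share the same genotypes and depths. For Il18 they were Samd9l (root mean square difference 0.0966), Trim30d (0.0987) and Plac8 (0.101), where Il18 itself varied by 0.461 around its mean on the same scale. For Il1b they were Pou2f2 (0.103), Ptafr (0.143) and Tnfrsf26 (0.144), and for Il1rn they were Mxd1 (0.0871), Smpdl3b (0.0917) and Icam1 (0.108). For Il1a they were F2rl1 (0.176), Stac2 (0.201) and P4ha1 (0.214). Il1a itself varied by 0.523, Il1b by 0.382 and Il1rn by 0.335 around their means. The values therefore do not rank the members by how near their nearest genes are. Il18 and Il1b were themselves 0.516 apart on this measure, so the nearest genes of Il18 could not also be those of Il1b.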

How the data were processed

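Poly-T selected RNA of abdominal aorta was sequenced, per the labels' protocols, and the deposited table holds raw whole-number counts per gene in 6 libraries. The submitters' processing notes name HISAT2 2.0.5, featureCounts 1.5.0-p3 and the build GRCm38. Strand setting, annotation release and handling of shared reads are not stated in the sources used here. The members and lists were chosen with earlier results of these data known.

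Genes were filtered by filterByExpr, scaled by TMM and tested, KO against WT, by edgeR 4.0.16 (quasi-likelihood) in R 4.3.3 with p-values adjusted by Benjamini-Hochberg across every gene tested. A standard error was the size of the log2 fold change over the square root of F. CPM used TMM-scaled library sizes, log2 CPM a prior count of 2, and RPKM the merged exon length of GENCODE mouse release 21 (GRCm38), which matched 54495 of 54532 identifiers. Ratios used an exact permutation test (scipy 1.17.1). The edgeR script was tested on simulated data. No pair of libraries was a repeat (chi-square of 25.6 to 81.01 per degree of freedom over genes with at least 20 counts).

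Named were the members, a panel set by name, up to 3 genes of smallest unadjusted p per pathway list, and the 3 nearest genes for 4 members. Lyz1, Lyz2, Cxcl5, the mast cell genes, Ly6g, Gsdmc and the Il1f genes at 0 were named after their values were seen. The table's names Il1f5, Il1f6, Il1f8 and Il1f9 stand for the IL-36 genes. Alternatives used other scalings, no filter, DESeq2 1.42.0, limma-voom (limma 3.58.1), a legacy fit, a replicate block and left-out libraries. Figures were drawn with matplotlib 3.10.9.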

Additional observations from a re-analysis of the deposited data

How the results depend on the processing

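Against 2 genes called over all tested genes, no filter on low counts gave 644, DESeq2 454, limma-voom 0, the legacy robust fit 1 and the replicate block 0, and leaving out 1 library gave 0 to 155. Members called numbered 1 with no filter and 1 by DESeq2, and 0 to 1 with 1 library left out, the call being Il18 each time. Other pathway genes called numbered 8 with no filter, 5 by DESeq2 and 0 to 2 with 1 library left out. Of the left-out libraries, WT replicate 3 gave the 155, the call of Il18 and the 2 pathway calls, Ifi204 and Ifi209, and 0 genes were called without KO replicate 1 or without WT replicate 1. No other member was called under any alternative run. The sign of Il1b turned under limma-voom (-0.0537) and the replicate block (-0.0460), and with 1 library left out its log2 fold change ran from -0.33 to 0.28 and that of Il1a from -0.18 to 0.63. Without KO replicate 3 and WT replicate 2 together, added after seeing the data, Il1b was at -0.34 and Il1a at -0.15. The difference in the log2 ratio of Il18bp to Il18 ran from -0.0212 to 0.26 with 1 library left out. The other 8 members kept their sign under every alternative run. The cause of these shifts was not tested. Same-numbered libraries did not deviate together (correlations of -0.101, -0.0622 and -0.12), so the replicate block pairs numbers alone, and no library correlated best with its own number. With 3 libraries a genotype the precision was limited: the 95% interval of the KO level over the WT level ran from 0.675 to 2.18 for Il1a.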
